A study of Saccharomyces cerevisiae with 24 samples.

Results

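The genes described here are 9 nuclear genes of *Saccharomyces cerevisiae* that form 4 small families with an aerobic and a hypoxic form. They are *ANB1* (YJR047C) and *HYP2* (YEL034W), *COX5B* (YIL111W) and *COX5A* (YNL052W), *CYC7* (YEL039C) and *CYC1* (YJR048W), and *AAC3* (YBR085W) with *PET9* (YBL030C) and *AAC1* (YMR056C). They were chosen by name out of 5449 genes on one type of Affymetrix array and 5656 on an older type. All 9 had exactly 1 probe set (a group of probes for one transcript) on each type. The ratio of the hypoxic to the aerobic member was formed on every array. Here it is called the pair ratio.

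Yeast keeps several proteins in alternative forms whose genes are used at different oxygen levels. Oxygen is sensed partly through heme, whose synthesis needs oxygen. With heme, the activator Hap1 turns on aerobic genes such as *CYC1* and also *ROX1*, whose product represses hypoxic genes such as *ANB1*, *COX5B* and *AAC3*. Mutants without Hap1 or without heme are therefore classical tools for work on these pairs.

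Cells of strain L51 (MATa) were profiled under 6 conditions and cells of strain MHY100 (MATa) under 2, each with 3 arrays from independently grown cultures. All L51 cells carried the chromosomal disruption *hap1::LEU2*, the marker *trp1::HisG* and, from the label that names it, a *UAS1/CYC1-lacZ* reporter plasmid. Those named *HAP1* cells here also held an ARS-CEN plasmid with the genomic *HAP1* sequence, and those named *Δhap1* cells held the vector alone. Both kinds were kept in air or spent 6 h in an anaerobic chamber. *HAP1* cells were sampled in addition after 1.5 h in the chamber and, still aerobic, after 6 h of cobalt chloride at 400 µM. MHY100 cells lack heme synthesis of their own through *hem1-Δ100* and depend on added 5-aminolevulinic acid, a heme precursor. The dose was 250 µg/ml in cells called heme-sufficient, and 2.5 µg/ml in those called heme-deficient. Both strains also carried the alleles *his4-519*, *ade1-100*, *ura3-52* and *leu2-3, 112*. The study's text also mentions a replicate done in another strain, which the labels do not identify, so the labelled strain was used throughout. For the cobalt arrays the titles name the *HAP1* plasmid whereas a description names the empty one, and the titles were used.

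*HAP1* itself read 5.76 to 6.57 (log2 intensity) on the 6 *Δhap1* arrays and 9.77 to 12.13 on the 12 *HAP1* arrays, cobalt included. *HEM1* read 7.49 to 8.60 on the MHY100 arrays, between the 58.5th and the 79.2th percentile of genes. This reading does not show the *hem1-Δ100* allele, which was taken from the strain's description. All 4 MATa markers were at 9.77 or higher on the L51 arrays, while the α-factor genes *MF(ALPHA)1* and *MF(ALPHA)2* lay below the background level of the array on 17 and 18 of 18 arrays. Of the other MATα markers *STE3* lay below it on 3 arrays and *SAG1*, at 9.85 to 11.66, on 0, and their part in the results was not tested. The background level is the 95th percentile of the fission yeast probes of the same array, 7.84 to 9.06. 3 arrays, all replicate 3, stood apart from the other arrays of their condition: 1.5 h, cobalt and 6 h *HAP1* cells. *ANB1* and *CYC1* were among the genes that first drew attention to them, so results without these arrays are no independent support. On the 1.5 h array of replicate 3 *ANB1* was at 9.02 and *CYC1* at 13.72, like aerobic *HAP1* cells, and on the cobalt array of replicate 3 they were at 12.22 and 9.41, unlike them. The labels were kept, whether samples were exchanged was not tested, and every 1.5 h and cobalt mean includes these arrays unless stated. Arrays from 6 h were never hybridized in the same round as arrays from air, so 6 h against air can be told apart from the round only through the 1.5 h and cobalt arrays. *HAP1* and *Δhap1* arrays of one time always shared a round.

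The 6 h anaerobic *HAP1* cells differed from aerobic ones by a higher *COX5B* and lower *COX5A* and *CYC1*. These 3 of the 9 genes passed the test (limma, Benjamini-Hochberg adjusted p under 0.05), against 2.15% of all genes, and 6 of 9 had an unadjusted p under 0.05 (17.1%). In 6 of the 9 genes the 3 arrays of one group all lay outside the range of the other group, against 11.7% of all genes: *ANB1* and *COX5B* above, *HYP2*, *COX5A*, *CYC1* and *PET9* below. In *Δhap1* cells 6 h against air called 1 gene, *COX5B*, against 10.9% of all genes. It alone had an unadjusted p under 0.05 (30.6% of all genes), and the arrays of 3 genes, *ANB1*, *COX5B* and *PET9*, did not overlap (20.8%). The share of members called there, 1 of 9, was close to that of all genes. Aerobic *Δhap1* cells had 0 of 9 genes called against aerobic *HAP1* cells (0.0184% of all genes were called), but 4 at an unadjusted p under 0.05 (1.39%) and 7 with arrays that did not overlap (3.41%). In heme-deficient against heme-sufficient cells 4 of 9 were called (1.64% of all genes), 9 of 9 had an unadjusted p under 0.05 (18.7%) and 8 of 9 did not overlap (24.6%).

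**Figure D1:**
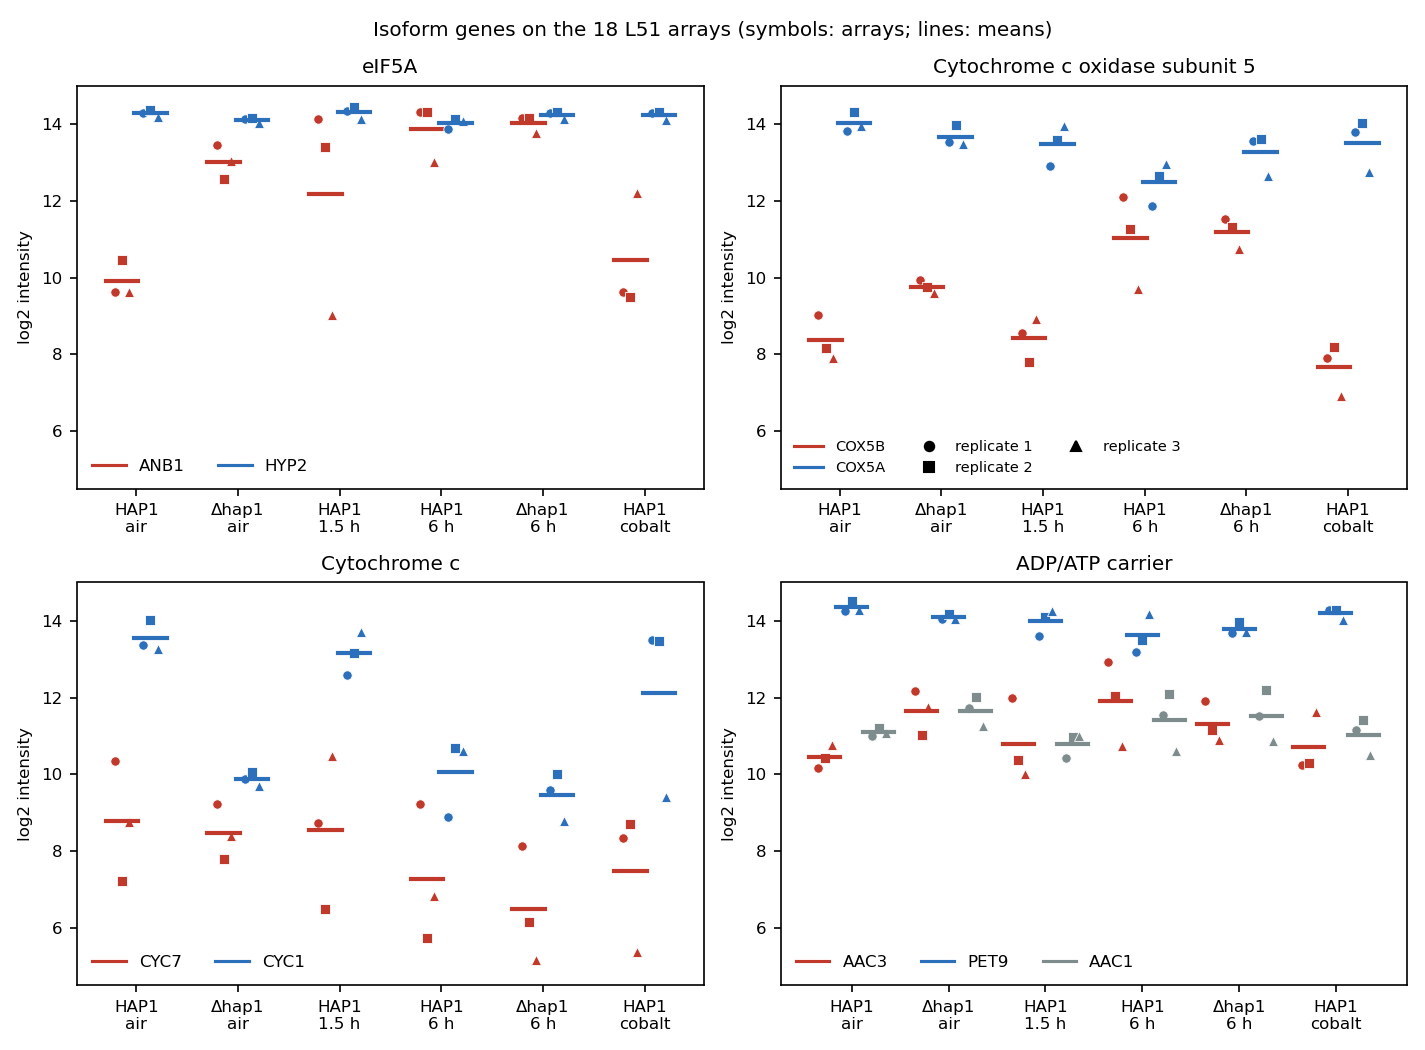
Log2 intensity (vertical axis) of the 9 genes on the 18 L51 arrays by condition. Symbols are arrays, with one shape for each replicate number, and short lines are means of 3. *HYP2* lies between 13.87 and 14.44 on every array, whereas *ANB1* runs from 9.02 to 14.33 and *CYC1* from 8.77 to 14.03.

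*ANB1* and *HYP2* encode forms of eIF5A, the translation factor that carries the modified residue hypusine. *HYP2* is the aerobic form. In air *ANB1* read 9.63, 10.46 and 9.63 in *HAP1* cells (replicates 1 to 3) and 13.45, 12.58 and 13.04 in *Δhap1* cells. After 6 h it read 14.31, 14.33 and 13.02 in *HAP1* cells and 14.16, 14.15 and 13.77 in *Δhap1* cells. Thus *ANB1* was low in aerobic *HAP1* cells alone among these 4 conditions, and the ranges of the other 3 lay at least 2 log2 units above it. *HYP2* had a highest reading of 14.44 and a lowest of 13.87 over all 18 arrays, between the 95.8th and the 99.0th percentile of genes on its array. The *ANB1*/*HYP2* pair ratio was -4.38 ± 0.41 (log2, SD, n = 3) in aerobic *HAP1* cells, -1.09 ± 0.45 in aerobic *Δhap1* cells, -0.15 ± 0.81 in *HAP1* cells after 6 h and -0.22 ± 0.12 in *Δhap1* cells after 6 h. The last 2 values lie near 0, where both probe sets are equally bright. At 6 h *ANB1* lay between the 90.3rd and the 98.6th percentile of genes on its array. Whether so bright a signal limits the ratio or its change was not tested. A ratio of 2 probe sets is not a ratio of mRNA amounts, as probe sets differ in brightness, and only its change between arrays is read here.

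The change of the *ANB1*/*HYP2* ratio from air to 6 h was 4.23 in *HAP1* cells, an 18.8-fold change, and 0.87 in *Δhap1* cells. Within replicates it was 5.10, 4.09 and 3.50 in *HAP1* cells and 0.54, 1.42 and 0.65 in *Δhap1* cells, so that every replicate moved up and the *HAP1* values lay above the *Δhap1* ones. With labels exchanged within each plasmid, the mean change of 2.55 over both plasmids had an exact permutation p = 0.005, the smallest that the 400 arrangements allow (two-sided, 1 of 12 such tests, unadjusted). Leaving out each of the 12 arrays in turn gave 2.40 to 2.78, with p of at most 0.01. With the hybridization round in place of the replicate number as the block, the change was 2.04 in *HAP1* cells and turned to -1.32 in *Δhap1* cells. The plasmid effect on this ratio over both oxygen levels was 1.61 (exact permutation p = 0.055). It passed without the 6 h *HAP1* array of replicate 1 (1.76, exact p = 0.04) or of replicate 2 (1.70, exact p = 0.04). Groups of 3 against 3 cannot go below an exact p of 0.1, and the 3.30 difference between aerobic *Δhap1* and *HAP1* cells, 9.83-fold, had that p.

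By limma, *ANB1* alone was higher by 3.98 (SE 1.01) at 6 h in *HAP1* cells, with adjusted p = 0.061. The call was gained when the 1.5 h replicate 3, cobalt replicate 2 or cobalt replicate 3 array was left out (lowest adjusted p = 0.00856), although none of them is in the comparison, since all 18 arrays share one estimate of the spread. Without all 3 arrays that stood apart the value was 4.33 (adjusted p = 3.43e-05). At 1.5 h *ANB1* read 14.14 and 13.41 in replicates 1 and 2 but 9.02 in replicate 3, below every aerobic array. The mean difference from air was 2.28 (adjusted p = 0.30), and 3.90 without replicate 3 (adjusted p = 0.0107). 0 of the 9 genes were called at 1.5 h against air (0.0367% of all genes were), 1 had an unadjusted p under 0.05, *ANB1* (15.7%), and 1 had arrays that did not overlap, *AAC1* (8.99%), which was lower. The cobalt arrays read 9.64, 9.49 and 12.22. Replicates 1 and 2 lay at the aerobic level and replicate 3 above it. The mean difference of 0.54 turned to -0.80 without cobalt replicate 3, and neither value was called (adjusted p = 0.82 and 0.64).

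*COX5B* and *COX5A* encode the hypoxic and the aerobic form of subunit 5 of cytochrome *c* oxidase, the enzyme that passes electrons to oxygen. In air *COX5B* read 9.03, 8.17 and 7.90 in *HAP1* cells and 9.95, 9.76 and 9.60 in *Δhap1* cells. At 6 h it read 12.11, 11.27 and 9.70 in *HAP1* cells and 11.54, 11.31 and 10.75 in *Δhap1* cells. The aerobic *HAP1* arrays were the lowest of these, and 2 of them lay below the background level, so the size of its change from that level is not firm. *COX5A* read 13.83, 14.32 and 13.95 in aerobic *HAP1* cells and 11.87, 12.65 and 12.97 at 6 h. In *Δhap1* cells it read 13.53, 13.98 and 13.50 in air and 13.57, 13.62 and 12.66 at 6 h. The aerobic form was thus lower at 6 h on all 3 *HAP1* arrays, while its *Δhap1* ranges overlapped.

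Against air, *COX5B* rose at 6 h by 2.66 (SE 0.43, limma adjusted p = 0.0144) and *COX5A* fell by 1.53 (SE 0.36, adjusted p = 0.0477) in *HAP1* cells. In *Δhap1* cells *COX5B* rose by 1.43 (SE 0.43, adjusted p = 0.0487) and *COX5A* differed by -0.38 (SE 0.36, adjusted p = 0.49). The difference of the 6 h change between plasmids had adjusted p = 0.93 for each of these genes, and 0 of 9 genes were called in it (0% of all genes), with 3 at an unadjusted p under 0.05 (1.74%) and 5 whose replicate changes did not overlap (9.05%). The call of *COX5B* in *HAP1* cells was lost without the air replicate 1, 6 h replicate 1 or 6 h replicate 2 array (adjusted p up to 0.141). That of *COX5A* was kept only without the 1.5 h replicate 3, cobalt replicate 2, cobalt replicate 3, 6 h *HAP1* replicate 3 or 6 h *Δhap1* replicate 3 array, and omission of any of the other 13 ended it (adjusted p up to 0.289). The call of *COX5B* in *Δhap1* cells was kept only without the air *HAP1* replicate 2, 1.5 h replicate 2 or 3, cobalt replicate 2, or 6 h *HAP1* replicate 1 or 3 array, and omission of any of the other 12 ended it (adjusted p up to 0.174). With the hybridization round as the block all 3 calls were lost: *COX5B* differed by 3.10 (adjusted p = 0.13) and *COX5A* by -0.92 (adjusted p = 0.514) in *HAP1* cells, and *COX5B* by 1.86 (adjusted p = 0.107) in *Δhap1* cells. With no block they were lost too (adjusted p = 0.0642, 0.123 and 0.208).

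*COX5B* was low at 1.5 h, with 8.56, 7.80 and 8.93, and differed from air by 0.06 (SE 0.43, adjusted p = 0.95). Between 1.5 h and 6 h it rose by 2.60 (SE 0.43, adjusted p = 0.0177). In that comparison 2 of 9 genes were called, *COX5B* and *CYC1*, against 15.3% of all genes. An unadjusted p under 0.05 was found for 4 of 9 (33.7%), and 3 had arrays that did not overlap (22.5%). The call of either gene was lost without the replicate 1 or 2 array of 1.5 h or of 6 h, and with no block (adjusted p = 0.0561 for *COX5B*). On the 6 h replicate 1 and 2 arrays and the 1.5 h arrays of the same numbers *ANB1* and *COX5B* took different courses: *ANB1* was already within 1 log2 unit of its 6 h reading at 1.5 h, and *COX5B* was not above its aerobic range. This contrast between the genes was not tested. The cobalt arrays of *COX5B* read 7.89, 8.19 and 6.91, and its difference from air was -0.70 (SE 0.43, adjusted p = 0.51).

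The *COX5B*/*COX5A* ratio was -5.67 ± 0.75 in aerobic *HAP1* cells, -5.06 ± 0.73 at 1.5 h and -1.47 ± 1.76 at 6 h. In *Δhap1* cells it was -3.90 ± 0.32 in air and -2.08 ± 0.20 at 6 h. From air to 6 h it changed by 5.04, 4.76 and 2.78 within the *HAP1* replicates and by 1.55, 1.91 and 1.99 within the *Δhap1* ones. Over both plasmids the mean change was 3.00 (exact permutation p = 0.005, the smallest possible), and 2.58 to 3.45 without any 1 of the 12 arrays (p of at most 0.01). It was the only ratio besides *ANB1*/*HYP2* to pass among the 6 tested. The plasmid effect was 0.58 (exact permutation p = 0.41), a mean of opposite signs: 1.77 in air, without overlap of the arrays, and -0.61 at 6 h. Over the 3 cobalt arrays the ratio varied least, with -5.91, -5.84 and -5.84, although *COX5B* and *COX5A* each ranged by more than 1 log2 unit there. *COX5B* was just above the background level on cobalt replicates 1 and 2 (7.89 against 7.84 and 8.19 against 8.08). On replicate 3, an array that stood apart, it lay below that level (6.91 against 8.72), so the even ratio is not firm.

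**Figure D2:**
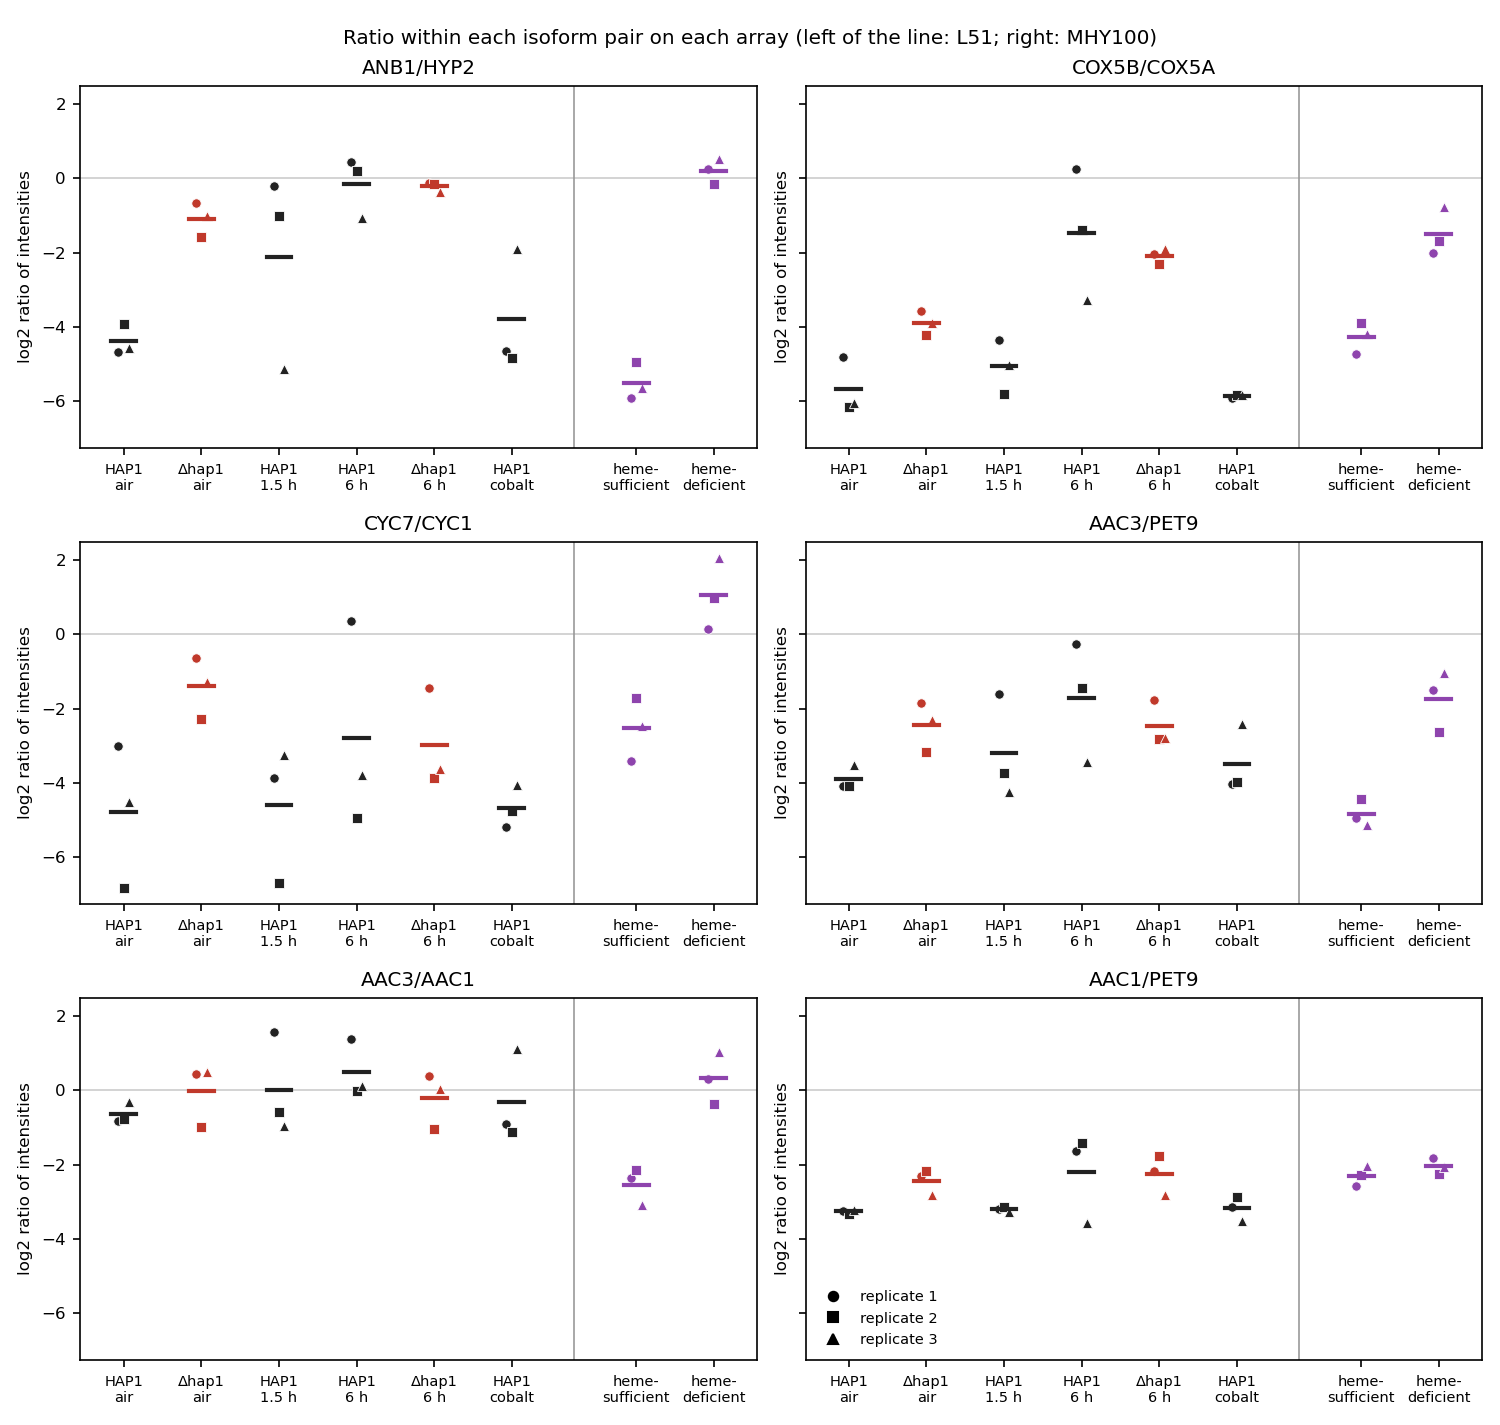
Log2 ratio of the intensities within each pair (vertical axis) on each array, by condition. Symbols are arrays by replicate number, short lines are means of 3, and the heme arrays stand right of the grey line. *ANB1*/*HYP2* lies between -4.66 and -3.91 in aerobic *HAP1* cells and between -1.57 and 0.44 in the aerobic *Δhap1* and 6 h cells.

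*CYC1* and *CYC7* encode iso-1 and iso-2 cytochrome *c*, which carries electrons to the oxidase. *CYC1* is the main aerobic form. In air *CYC1* read 13.37, 14.03 and 13.26 in *HAP1* cells and 9.86, 10.06 and 9.68 in *Δhap1* cells. At 6 h it read 8.87, 10.67 and 10.61 in *HAP1* cells and 9.59, 10.01 and 8.77 in *Δhap1* cells. The 3 aerobic *HAP1* arrays were the high ones among these 12, well clear of the other 9. At 1.5 h *CYC1* was still high, with 12.58, 13.15 and 13.72. In *HAP1* cells it fell by 3.50 at 6 h against air (SE 0.79, limma adjusted p = 0.0375) and by 3.10 at 6 h against 1.5 h (SE 0.79, adjusted p = 0.0274). The first of these calls was kept without any cobalt array, the 1.5 h replicate 2 or 3 array or the 6 h *HAP1* replicate 3 array, and lost without any of the other 12 (adjusted p up to 0.267). With the hybridization round as the block *CYC1* differed by -1.52 at 6 h against air (adjusted p = 0.543) and by -1.48 at 6 h against 1.5 h (adjusted p = 0.288), and with no block both calls were lost as well (adjusted p = 0.107 and 0.0728). As for *ANB1*/*HYP2*, the round-block value against air is linked through the 1.5 h and cobalt arrays, those that stood apart included.

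Aerobic *Δhap1* cells had *CYC1* lower than *HAP1* cells by 3.69 (SE 0.79), with differences of -3.51, -3.97 and -3.58 in replicates 1 to 3. The limma adjusted p was 0.71, and it was 0.00283 without cobalt replicate 3, the only single array whose omission gave a call. When only the groups compared were fitted, the same difference had a limma adjusted p = 0.0322. On the cobalt arrays *CYC1* read 13.51 and 13.46 in replicates 1 and 2 and 9.41 in replicate 3. The mean difference of -1.43 from air became -0.07 without cobalt replicate 3. The difference of the 6 h change between plasmids was 3.09 for *CYC1* (SE 1.11, adjusted p = 0.93), and 3.56 (adjusted p = 0.0188) without the 3 arrays that stood apart. For *ANB1* the same comparison gave -2.98 (adjusted p = 0.93), and -3.32 (adjusted p = 0.0188) without those arrays. *CYC1* lay below the background level on the 6 h *Δhap1* array of replicate 3 (8.77 against 9.06), so the size of its difference is not firm. *ANB1* and *CYC1* are neighbours on chromosome X, transcribed away from each other, with 0 protein-coding genes between them. On the 18 arrays their log2 intensities had a correlation of -0.77, a description of arrays that share conditions.

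*CYC7* varied more between replicates than between conditions. In air it read 10.35, 7.22 and 8.76 in *HAP1* cells and 9.23, 7.79 and 8.38 in *Δhap1* cells. At 6 h it read 9.23, 5.72 and 6.81 in *HAP1* cells and 8.13, 6.15 and 5.15 in *Δhap1* cells. The 1.5 h replicates, with 8.72, 6.47 and 10.47, lay further apart than any pair of *CYC7* condition means, and every condition had at least 1 array below the background level. The differences at 6 h against air were -1.52 (SE 0.98) in *HAP1* cells and -1.99 (SE 0.98) in *Δhap1* cells, both down and neither called (adjusted p = 0.45 and 0.18). The *CYC7*/*CYC1* ratio was -4.78 ± 1.91 in aerobic *HAP1* cells, -1.40 ± 0.83 in aerobic *Δhap1* cells, -2.80 ± 2.79 in *HAP1* cells after 6 h and -2.98 ± 1.33 in *Δhap1* cells after 6 h. From air to 6 h it was higher on all 3 *HAP1* replicates (3.37, 1.86 and 0.71) and lower on all 3 *Δhap1* replicates (-0.82, -1.59 and -2.32), a mean over both of 0.20 (exact permutation p = 0.875). In *HAP1* cells *CYC7* was different by -1.52 and *CYC1* by -3.50, so the ratio was higher without a higher *CYC7*.

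*AAC3*, *PET9* and *AAC1* encode the ADP/ATP carriers of the inner mitochondrial membrane. *PET9*, also called *AAC2*, is the main form for growth on respiration, *AAC3* is the hypoxic form and *AAC1* a minor aerobic one. *AAC3* read 10.17, 10.43 and 10.77 in aerobic *HAP1* cells and 12.18, 11.02 and 11.74 in aerobic *Δhap1* cells. At 6 h it read 12.93, 12.05 and 10.73 in *HAP1* cells and 11.92, 11.14 and 10.90 in *Δhap1* cells. The aerobic *HAP1* range was low and narrow, and the 6 h *HAP1* range met it through replicate 3 alone. *PET9* read 14.24, 14.52 and 14.29 in aerobic *HAP1* cells and 13.19, 13.51 and 14.17 at 6 h. In *Δhap1* cells *PET9* read 14.04, 14.18 and 14.06 in air and 13.69, 13.96 and 13.70 at 6 h. In both plasmids *PET9* was lower at 6 h without overlap of the arrays.

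At 6 h against air in *HAP1* cells *AAC3* differed by 1.45 (SE 0.55, limma adjusted p = 0.19) and *PET9* by -0.73 (SE 0.23, adjusted p = 0.12). Without 6 h *HAP1* replicate 3 both passed, with 2.05 (adjusted p = 0.0483) and -1.01 (adjusted p = 0.0156). In *Δhap1* cells the same comparison gave -0.33 for *AAC3* (SE 0.55, adjusted p = 0.71) and -0.31 for *PET9* (SE 0.23, adjusted p = 0.37). *AAC1* differed by 0.32 in *HAP1* cells and -0.13 in *Δhap1* cells, within the spread of its arrays, which ran from 10.41 to 12.20 over all conditions. At 6 h against 1.5 h *AAC3* was called only without 6 h *HAP1* replicate 3 (1.72, adjusted p = 0.0466), *COX5A* likewise (-1.35, adjusted p = 0.0319), and *AAC1* only without 1.5 h replicate 3 (0.97, adjusted p = 0.0176).

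The *AAC3*/*PET9* ratio was -3.90 ± 0.32 in aerobic *HAP1* cells, -2.45 ± 0.66 in aerobic *Δhap1* cells, -1.72 ± 1.60 in *HAP1* cells after 6 h and -2.47 ± 0.60 in *Δhap1* cells after 6 h. It changed from air to 6 h by 3.81, 2.63 and 0.08 within the *HAP1* replicates and by 0.09, 0.34 and -0.49 within the *Δhap1* ones. The mean over both plasmids was 1.08 (exact permutation p = 0.13). *AAC3*/*AAC1* changed by 0.46 (exact permutation p = 0.305) and *AAC1*/*PET9* by 0.61 (exact permutation p = 0.185, and 0.035 without the 6 h *HAP1* replicate 3 array). The *AAC1*/*PET9* ratio was nearly the same on the 6 arrays of *HAP1* cells in air and at 1.5 h (-3.32 to -3.14), and in aerobic *Δhap1* cells it was higher on all 3 arrays (-2.81 to -2.18). At 1.5 h *AAC3*/*PET9* read -1.62, -3.73 and -4.25, so only replicate 1 lay outside the aerobic *HAP1* range upwards, and replicate 3 lay below it.

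The 4 hypoxic to aerobic ratios of *ANB1*, *COX5B*, *CYC7* and *AAC3* with their main aerobic partners had their lowest or second lowest mean in aerobic *HAP1* cells. Ordered by mean, neighbouring conditions overlapped except for *ANB1*/*HYP2* between aerobic and 6 h *Δhap1* cells and for *COX5B*/*COX5A* between 1.5 h *HAP1* and aerobic *Δhap1* cells and between aerobic and 6 h *Δhap1* cells. In aerobic *Δhap1* against *HAP1* cells all 4 were higher on every array, by 3.30, 1.77, 3.38 and 1.45. The members behind these values differed: *ANB1*, *COX5B* and *AAC3* were higher by 3.11, 1.40 and 1.19, while *CYC7* differed by -0.31 and the ratio followed *CYC1*. With oxygen withdrawn for 6 h the mean plasmid differences were smaller, from -0.07 for *ANB1*/*HYP2* to -0.74 for *AAC3*/*PET9*, but replicates disagreed in sign. *COX5B*/*COX5A* differed by -2.27, -0.92 and 1.36 in replicates 1 to 3 and *AAC3*/*PET9* by -1.51, -1.36 and 0.64. The 6 h *HAP1* array of replicate 3 is among those that stood apart. With replicates or arrays left out the means of these pairs reached -1.60 and -1.62, so a smaller difference is not firm for them. Between the plasmids at 6 h 0 of 9 genes were called or free of overlap (0.0184% and 2.35% of all genes). The number with an unadjusted p under 0.05 was 0 (1.52%). In cobalt against air 0 of 9 were called (0.147% of all genes), 0 did not overlap (7.76%) and 0 had an unadjusted p under 0.05 (10.2%). The cobalt changes of these ratios were 0.59, -0.20, 0.12 and 0.41, and without cobalt replicate 3 they were -0.77, -0.41, -0.18 and -0.38, so that 3 of the 4 turned from higher to lower.

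**Figure D3:**
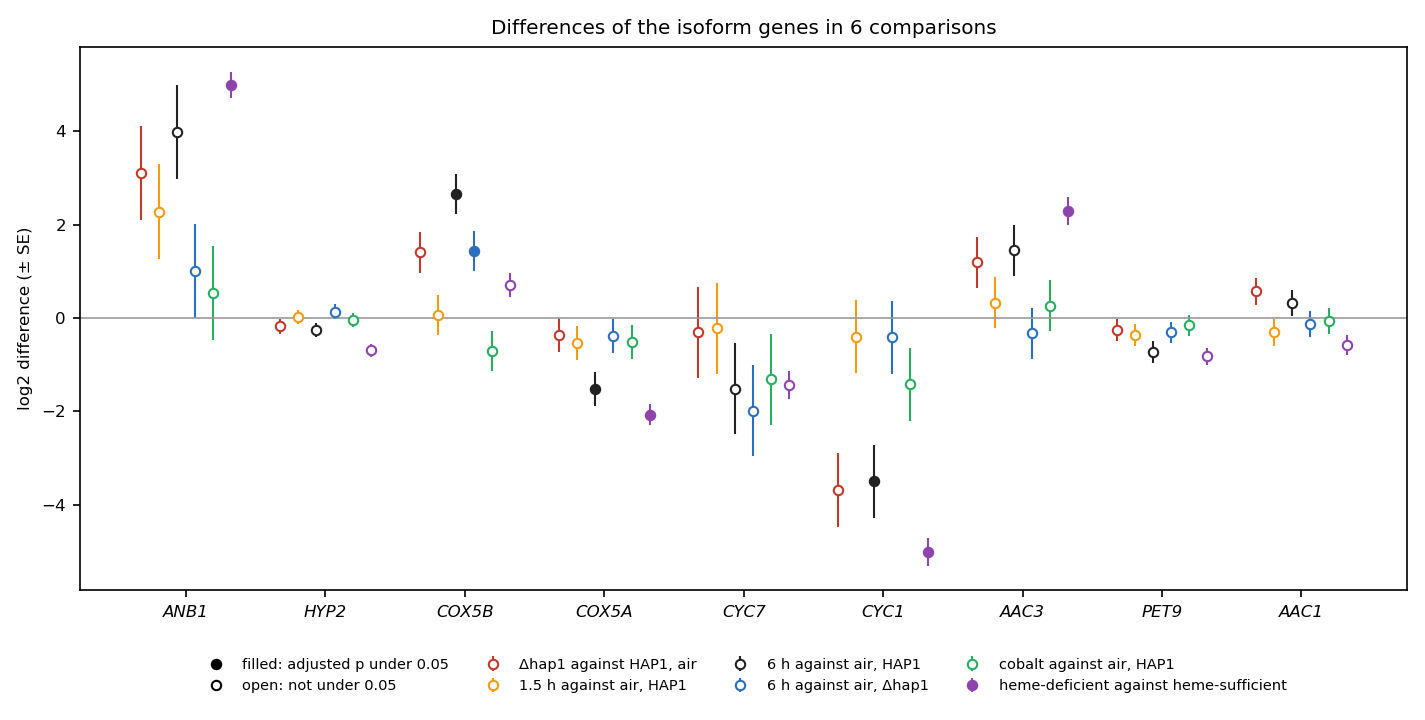
Log2 difference of each gene (vertical axis, bars are the limma standard error) in 6 comparisons, marked by colour. Filled circles have an adjusted p under 0.05. *CYC1* is near -3.69 in aerobic *Δhap1* cells, -3.50 at 6 h and -5.01 under heme deficiency, and near -0.40 at 1.5 h.

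Heme deficiency, tested on the older array type that was normalized separately, changed 4 members. *ANB1* read 7.47, 8.44 and 7.77 in heme-sufficient and 13.02, 12.51 and 13.15 in heme-deficient cells, a rise of 5.00 (SE 0.28, limma adjusted p = 0.000342). *CYC1* read 10.42, 9.54 and 9.76 against 5.33, 4.92 and 4.43 and fell by 5.01 (SE 0.29, adjusted p = 0.000342). The neighbours on chromosome X thus went in opposite directions. No background level was set on this array type, and *CYC1* lay between the 8.28th and the 19.7th percentile of genes in heme-deficient cells. Whether such low signal limits the size of its fall was not tested. *COX5A* fell by 2.07 (SE 0.22, adjusted p = 0.00476), from 10.93, 10.59 and 10.82 to 8.70, 9.11 and 8.32. *AAC3* rose by 2.29 (SE 0.30, adjusted p = 0.0102), from 6.63, 6.78 and 6.33 to 9.19, 8.15 and 9.27. The first 3 calls held on leaving out any 1 array (highest adjusted p = 0.0489), and that of *AAC3* was lost without heme-sufficient replicate 1 or 3 (highest adjusted p = 0.0785).

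The other 5 genes were not called. *HYP2* read 13.39, 13.38 and 13.43 in heme-sufficient and 12.79, 12.68 and 12.65 in heme-deficient cells, a difference of -0.69 (SE 0.14, adjusted p = 0.059). *PET9* read 11.58, 11.21 and 11.47 against 10.70, 10.78 and 10.33, a difference of -0.82 (SE 0.18, adjusted p = 0.086). *AAC1* differed by -0.57 (SE 0.21, adjusted p = 0.23). For these 3 aerobic forms the arrays of the 2 doses did not overlap. *CYC7* read 7.01, 7.83 and 7.28 against 5.46, 5.90 and 6.47, so it was lower by 1.43 (SE 0.30, adjusted p = 0.065), the same side as *CYC1*, and it was called without heme-deficient replicate 3 (-1.69, adjusted p = 0.0485). *COX5B* read 6.20, 6.70 and 6.63 against 6.69, 7.42 and 7.53, a difference of 0.71 (SE 0.26, adjusted p = 0.23) with ranges that met at 1 array. With the replicate number as a block, *HYP2*, *COX5B*, *CYC7* and *PET9* were called too, so that all but *AAC1* passed. The number of 1 heme-sufficient array is in doubt, as its title and source label differ, so the block was kept as an alternative only. The share of all genes called with it is not given here.

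In 4 pairs, and for *AAC3*/*AAC1* as well, the hypoxic to aerobic ratio was higher on every heme-deficient array than on every heme-sufficient one. *ANB1*/*HYP2* was -5.92, -4.93 and -5.65 in sufficient and 0.23, -0.17 and 0.50 in deficient cells, a change of 5.69, which is 51.6-fold. *CYC7*/*CYC1* changed by 3.58, *AAC3*/*PET9* by 3.11, *AAC3*/*AAC1* by 2.86 and *COX5B*/*COX5A* by 2.78. None of their arrays overlapped, and each had the smallest p that 3 against 3 allows, 0.1 by the exact permutation test. *AAC1*/*PET9*, the ratio of the 2 aerobic carriers, differed by 0.25 with overlap (exact permutation p = 0.4). As *HYP2*, *CYC1*, *CYC7*, *COX5A*, *PET9* and *AAC1* were themselves lower, these ratio changes mix both members. *CYC7*/*CYC1* was higher with *CYC7* different by -1.43 and *CYC1* by -5.01. For *COX5B*/*COX5A* the members differed by 0.71 and -2.07.

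**Figure D4:**
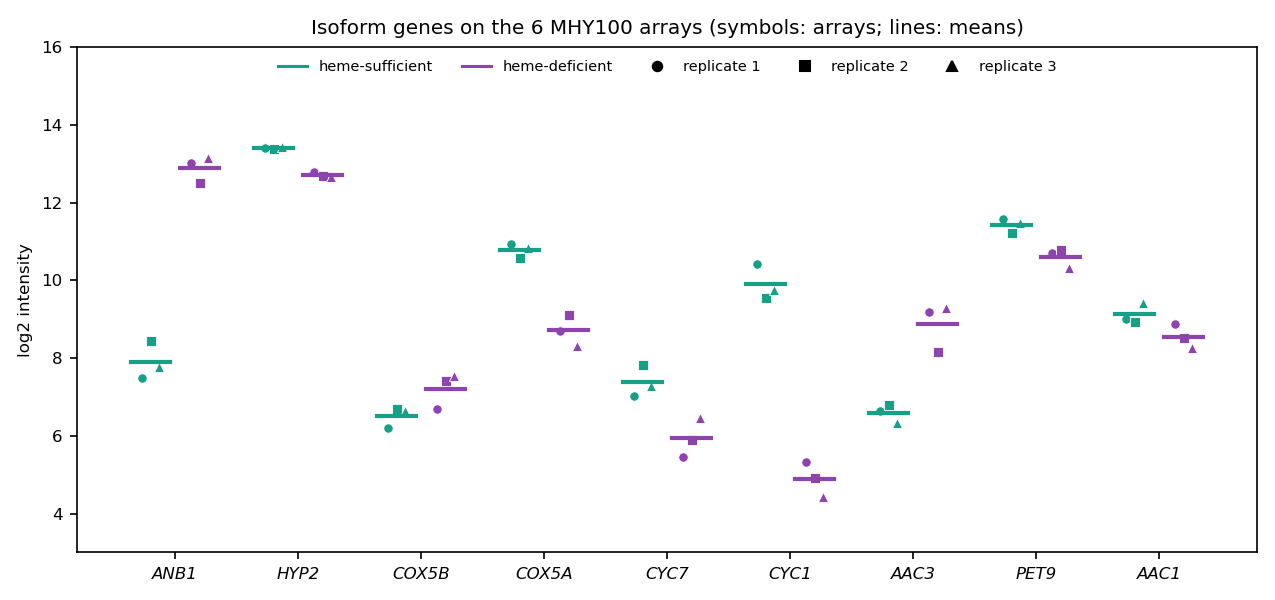
Log2 intensity (vertical axis) of the 9 genes in heme-sufficient and heme-deficient MHY100 cells. Symbols are arrays by replicate number and short lines are means of 3. *ANB1* and *CYC1* move by 5.00 and -5.01, and *HYP2* by -0.69.

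Several measurements bear on how far a probe set reads its own gene. The members of a family are similar in sequence, and their probes could share signal. *HYP2* was at 14.20 or higher in aerobic *HAP1* cells, where *ANB1* was at 9.63 on 2 of 3 arrays and at 10.46 on the other. *PET9* was likewise at 14.24 or higher where *AAC3* was at 10.17 to 10.77. How much of the low readings of *ANB1* or *AAC3* came from their partners was not tested. *CYC7* read 5.15 to 10.47 and had a correlation of 0.42 with *CYC1* over the 18 arrays, which share conditions. The ratio of 3′ to 5′ probes for *ACT1*, a sign of RNA quality, was 1.29 to 1.60 on the L51 arrays and 2.05 to 2.54 on the MHY100 arrays. The paper describes replacing arrays on which this ratio for β-actin exceeded 2. All MHY100 arrays exceeded 2 here, where the ratio came from the deposited intensities. Whether it matches the paper's measure was not tested.

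The regulators of these pairs were followed as a list of 9 genes. *ROX1*, the repressor of hypoxic genes, differed by -2.47 between 1.5 h and 6 h (limma adjusted p = 0.0479), with replicate 3 on the other side (-4.45, -3.49 and 0.53). *HAP4*, the activating subunit of the Hap2/3/4/5 complex that drives respiratory genes, fell from air to 6 h by 2.06 with the *HAP1* plasmid (limma adjusted p = 0.0335) and by 1.66 with the vector (adjusted p = 0.0337). Under heme deficiency it fell by 1.43 (adjusted p = 0.0216). At 6 h against air 1 of the 9 regulators was called in *HAP1* cells (2.15% of all genes) and 1 in *Δhap1* cells (10.9%). The share in *Δhap1* cells was close to that of all genes. Under heme deficiency 1 of the 9 was called (1.64% of all genes). At 6 h against 1.5 h 4 were called lower (15.3% of all genes were called), *ROX1*, *HAP4*, *MOT3* and *HAP2*.

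Partner genes of *COX5A* and *COX5B* were followed as 7 other subunits of the oxidase. Their median difference was -1.63 at 6 h in *HAP1* cells, against -0.10 over all genes, with 0 of 7 called (2.15% of all genes). Under heme deficiency 5 of the 7 were called lower (1.64% of all genes were called), with a median of -2.11 against -0.06 over all genes, led by *COX7* (-3.47, adjusted p = 0.0034) and *COX12* (-3.33, adjusted p = 0.0087). *CYT1*, cytochrome *c*1 that hands electrons to the *CYC1* and *CYC7* products, fell by 1.72 there (adjusted p = 0.033). *HMG1* and *HMG2*, an aerobic and hypoxic pair of the sterol pathway, were taken for comparison. From air to 6 h *HMG2* rose by 1.25 with the *HAP1* plasmid (limma adjusted p = 0.0144) and by 0.86 with the vector (adjusted p = 0.0229). *HMG1* fell by 1.99 under heme deficiency (adjusted p = 0.0034). Of the 2 hypusine enzymes of eIF5A, *LIA1* fell by 1.05 from 1.5 h to 6 h (limma adjusted p = 0.0227, with 15.3% of all genes called). Neither was called at 6 h against air (2.15% of all genes in *HAP1* and 10.9% in *Δhap1* cells). Of 3 other mitochondrial carriers 0 were called at 6 h in *HAP1* cells or under heme deficiency (2.15% and 1.64% of all genes). *SAL1* fell by 0.74 at 6 h in *Δhap1* cells (limma adjusted p = 0.0482, with 10.9% of all genes called). At 1.5 h and in cobalt 0 genes of any of these lists were called against air, where few genes were called at all (0.0367% and 0.147%).

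Over the 18 L51 arrays the genes most like each member were listed by Pearson's r of log2 intensity, as a description of arrays that share conditions. *ANB1* was most like *TIR1* (r = 0.95), *HEM13* (0.95) and *DAN1* (0.91), and *CYC1* most like *HMX1* (0.94), *QCR6* (0.89) and *CYT1* (0.85). *COX5A* was most like *YGR266W* (0.94), *EHT1* (0.94) and *COR1* (0.91), and *PET9* most like *MIR1* (0.93), *EHT1* (0.89) and *FET3* (0.88). *EHT1* is in both of the last lists, and *COX5A* and *PET9* had a correlation of 0.86 with each other. *COX5B* was most like *FMP46* (0.92), *AAC1* most like *GEX1* (0.91), *CYC7* most like *IWR1* (0.92), *AAC3* most like *PRM9* (0.82) and *HYP2* most like *ERG7* (0.82). No member of a pair was among the 3 genes most like its partner, as members were left out of the search. Within pairs the correlations were -0.26 for *ANB1* and *HYP2*, -0.46 for *COX5B* and *COX5A*, 0.42 for *CYC7* and *CYC1* and -0.81 for *AAC3* and *PET9*.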

How the data were processed

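The authors hybridized labelled RNA to 2 Affymetrix array types and deposited, for each, a table of probe set intensity values on a linear scale, made with GCOS and RMA per the labels. RMA corrects background, normalizes the arrays of a set to each other and summarizes probes. It can shrink low values, and an array's number of probes limits precision. The tables were normalized separately, so tests stay within 1 table. Each array's information sheet, an operational record deposited with it, gave only the order of hybridization rounds (same day, within 30 minutes of the first array of the round). Columns not used numbered 0.

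The deposited intensities were taken to log2. Of 10928 probe sets on the newer type 5498 had 1 yeast gene, and of 9335 on the older type 6504; a gene with several was read from the brightest, giving 5449 and 5656 genes. Gene names came from the platform annotation, updated through RefSeq (R64). limma 3.58.1 in R 4.3.3 was fitted across all genes, for L51 over 18 arrays with condition and replicate number and for MHY100 over 6 arrays with dose, with Benjamini-Hochberg adjusted p under 0.05 as the call. Its steps were tested on simulated data. Pair ratios were compared by exact permutation tests, two-sided.

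Replicates were independently grown cultures. Replicate numbers were a block because the study's fold changes pair arrays of one number. Deviations from the condition means correlated with a median r of 0.56, 0.71 and 0.25 within numbers 1 to 3, with a lowest of -0.44. 1 heme-sufficient array is numbered 1 by its title but 3 by the source label, and 1 heme-deficient array has no information sheet. No 2 arrays had identical values. The 9 genes were named in every comparison, from the gene lists at most 4 members by size among those called. Genes, lists and the 3 arrays left out together were chosen with earlier results of these data known. Alternatives were no block or another block, quantile scaling, an offset of 50, a filter on dim genes, all probe sets of a gene averaged, only the groups compared, and arrays left out.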

Additional observations from a re-analysis of the deposited data

Results flagged for a closer look

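The 6 h change of *HYP2* had opposite signs in the 2 plasmids in all replicates, lower in *HAP1* cells and higher in *Δhap1* cells, with a difference of 0.39 (log2, *Δhap1* minus *HAP1*; limma adjusted p = 0.93, not called). The *CYC7*/*CYC1* ratio was higher at 6 h in all 3 *HAP1* replicates and lower in all 3 *Δhap1* replicates, with a difference of -3.56. The *AAC3*/*AAC1* ratio did the same, with a difference of -1.32. For both ratios the replicate differences did not overlap, and the exact permutation p was 0.1, the smallest that 3 against 3 allows, so this test could not pass its threshold, and no other test of the ratio difference was run.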

How the results depend on the processing

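No called result changed direction under an alternative. 6 h against air in *HAP1* cells had 3 members called, but 0 with no replicate block, 0 with the hybridization round as the block and 0 when only the groups compared were fitted. 6 h against air in *Δhap1* cells (1 called) gave 0, 0 and 3 under these settings, and 6 h against 1.5 h (2 called) gave 0, 1 and 0. Aerobic *Δhap1* against *HAP1* cells (0 called) gave 1 when only the groups compared were fitted. Heme (4 called) gave 8 with the replicate block and 7 with the round as the block. Without the 3 arrays that stood apart the counts were 2 for aerobic *Δhap1* against *HAP1* cells, 1 for 1.5 h, 6 and 2 for 6 h in *HAP1* and *Δhap1* cells, 4 for 6 h against 1.5 h and 2 for the difference between plasmids. The share of all genes called under each alternative, or with arrays left out, is not given here. These counts therefore do not show whether a shift concerned the members more than other genes.

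With a replicate number or 1 array left out these counts ran from 0 to 1 for aerobic *Δhap1* against *HAP1* cells, 0 to 1 for 1.5 h, 0 to 6 and 0 to 1 for 6 h in *HAP1* and *Δhap1* cells, 0 to 4 for 6 h against 1.5 h and 0 to 5 for heme, where the 0 came without replicate 3. They stayed at 0 for cobalt and for the plasmids at 6 h. With the round as the block the 6 h ratio change was 2.04 for *ANB1*/*HYP2* in *HAP1* cells, and in *Δhap1* cells -1.32 for *ANB1*/*HYP2*, -2.60 for *CYC7*/*CYC1* and -0.98 for *AAC3*/*PET9*. Every value of 6 h against air with this block is linked through the 1.5 h and cobalt arrays, those that stood apart included. Leaving out replicates or arrays gave 1.52 to 2.15 for *COX5B*/*COX5A* at 6 h in *Δhap1* cells, 0.96 to 2.36 for *AAC3*/*PET9* at 6 h against 1.5 h, -0.38 to 1.11 for *AAC3*/*PET9* in cobalt and -4.23 to -2.41 for the *CYC7*/*CYC1* difference between plasmids. Over both plasmids the 6 h change was 2.40 to 2.79 for *ANB1*/*HYP2* and 2.58 to 3.45 for *COX5B*/*COX5A*. With a replicate number left out the smallest possible exact permutation p is 0.0556, so these could not pass. The plasmid effect was 1.35 to 1.92 for *ANB1*/*HYP2* and 0.99 to 2.39 for *CYC7*/*CYC1*, which passed without the 6 h *HAP1* replicate 1 array (exact permutation p = 0.025). Within replicate numbers (replicate block) both 6 h changes had an exact permutation p = 0.0312, the smallest possible. The cause of these shifts was not tested. Low signal limits *COX5B* and *CYC7*, which lay below background on some arrays, and *CYC1*, which did so on the 6 h *Δhap1* array of replicate 3.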
